A study of Mus musculus with 6 samples.

Results

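Integrins, laminins, nidogens, perlecan and agrin form the contact between cells and the basement membrane, the thin sheet of matrix under epithelia and around vessels, muscle and nerve. Their genes were taken by name from the count table, as every integrin alpha and beta chain, every laminin alpha, beta and gamma chain, both nidogens, Hspg2 (perlecan) and Agrn (agrin). Of 28368 genes in the table, 41 matched by name and 39 had at least 15 counts summed over the 6 libraries. The 39 members were 17 integrin alpha chains, 8 integrin beta chains, 10 laminin chains, 2 nidogens and 2 heparan sulphate proteoglycans. Polyadenylated RNA of whole mouse tumours was compared between 3 libraries of treated mice, which had received MS-DF-MS for 12 h, and 3 libraries of untreated mice. By its title the study used implanted depots that deliver STING agonists first and inducers of apoptosis later. The labels do not name the drugs, the tumour line or the strain, age and sex of the mice. They list no mice with an empty depot, so drug and implant cannot be told apart. Whether each library came from a separate mouse is not stated either, and p-values measure the spread between these libraries, which may be partly technical.

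Laminins are trimers of an alpha, a beta and a gamma chain that polymerise on the cell surface and start a basement membrane. Nidogens and perlecan link the laminin network to the network of type IV collagen, and agrin ties laminin to receptors on the cell. Integrins are receptors of an alpha and a beta chain that span the cell membrane. Those that bind laminin anchor cells to the basement membrane, those that bind fibronectin and vitronectin hold cells to other matrix, and the integrins of leukocytes bind counter-receptors on other cells.

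Libraries held 64505780, 66097284 and 66634551 counts in treated tumours and 64172654, 64111478 and 57017043 counts in control tumours, of which the members took 0.191 to 0.208% in treated and 0.180 to 0.194% in control libraries. Genes of pigment cells made up 27970 to 30262 CPM (counts scaled to library size with TMM factors) in treated and 26603 to 29116 CPM in control libraries, summed over 10 markers. Treated library 3 stood apart on the first principal component of log2 CPM, at 72.9 against -37.9 to 13.3 for the other libraries, and it had the lowest sums of macrophage markers (80.1 CPM, against 158.1 to 264.1 CPM in the other libraries) and of skeletal muscle markers (2.94 against 29.6 to 166.1 CPM). Treated library 1 held keratinocyte transcripts, with 2739 counts of Krt14 against 0 to 4 in each other library, 1841 counts of Krt5 against 0 to 6, and 96.7 CPM summed over 12 epithelial markers against 0.932 to 3.31 CPM. It also had the highest sums of skeletal muscle markers (166.1 CPM) and neutrophil markers (78.7 CPM, against 7.07 to 31.8 CPM elsewhere). No 2 libraries of a group agreed within sampling noise, with chi-square statistics of 18.4 to 64.5 per gene.

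Both nidogens, agrin and the integrin chain Itga3 rose in treated tumours, and no member fell. Of 38 members with enough counts for the test, 4 rose (10.5% of them) at a Benjamini-Hochberg adjusted p under 0.05 in edgeR's quasi-likelihood F test, where 1.36% of all 18049 genes tested rose, 0.249% fell and 1.61% were called in either direction. Without treated library 2, or without any 1 of the controls, only Nid1 and Nid2 were called. By edgeR 2 of the 38 members, Itgae and Itga9, were lower at an unadjusted p under 0.05, against 1245 of all 18049 genes tested (6.90%). DESeq2 and limma-voom, like edgeR, called no member lower. At an unadjusted p under 0.05 by edgeR, 9 of the 38 members were higher, against 1646 of all 18049 genes tested (9.12%). The 3 treated libraries lay on one side of the 3 controls for 14 members (36.8%), 11 higher and 3 lower, against 23.3% of all genes tested. The median log2 fold change was 0.10 over the 38 members and -0.0032 over all genes tested. It was 0.86 for the 2 nidogens, 0.36 for the 2 proteoglycans, 0.24 for the 10 laminin chains and -0.15 for the 24 tested integrin chains, whose median lay between -0.14 and -0.03 with 1 library left out.

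**Figure D1:**
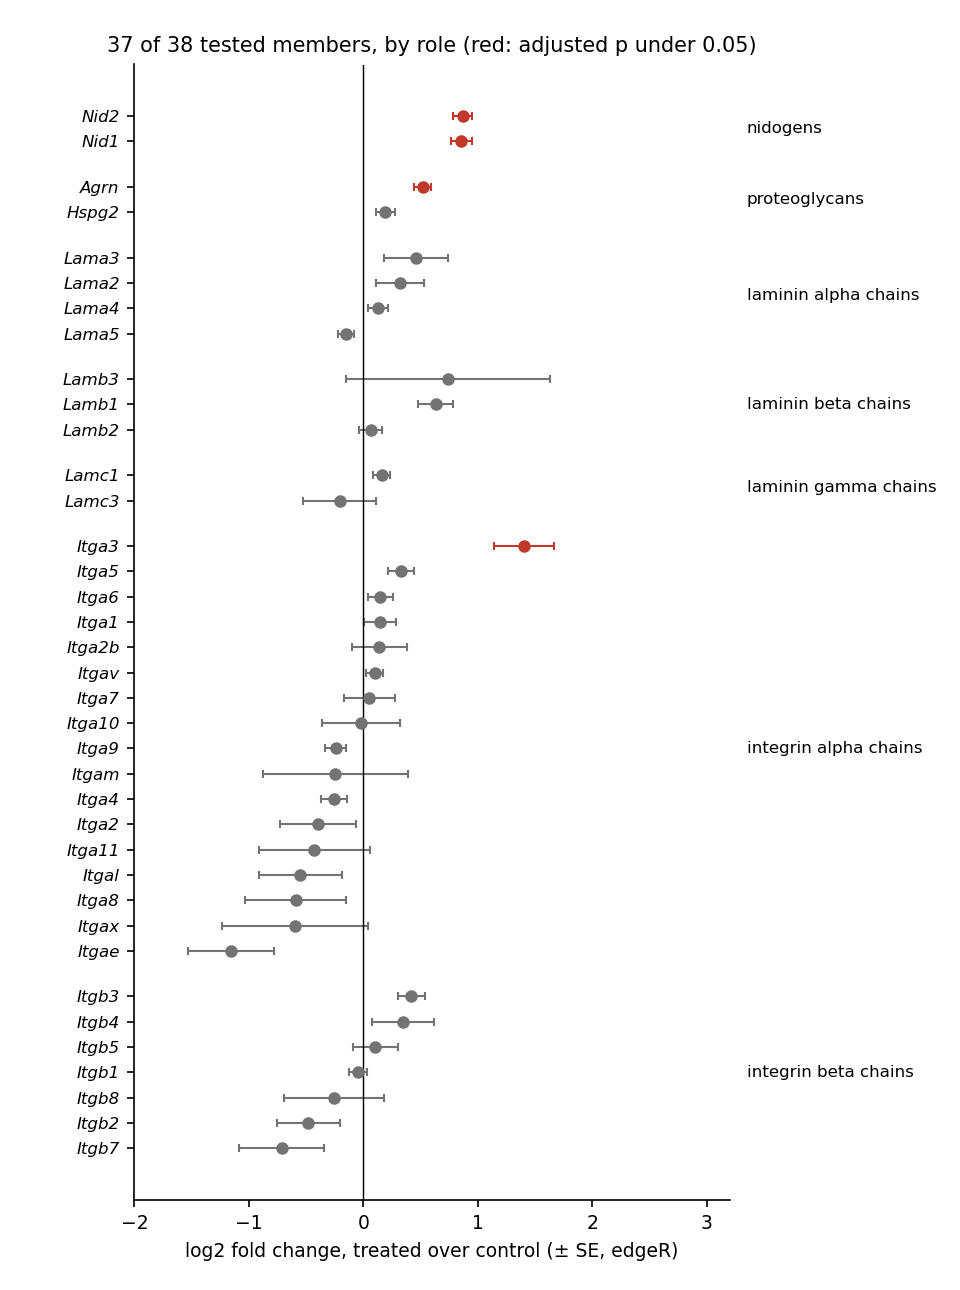
Log2 fold change of 37 of the 38 tested members, treated over control, with its SE from edgeR (x axis), ordered by role and size down the page. The 4 members in red, Nid2, Nid1, Agrn and Itga3, passed an adjusted p of 0.05, and Itga3 lies farthest to the right of them at 1.40.

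The nidogens, rod-shaped proteins that bridge laminin and type IV collagen, rose by nearly the same factor. Nid1 (ENSMUSG00000005397, chromosome 13, 13437551 to 13512269 as the span of the whole gene, in deposited coordinates whose build is not named) stood at 64.3, 68.5 and 65.6 CPM in treated libraries 1, 2 and 3 and at 41.1, 35.2 and 33.3 CPM in control libraries 1, 2 and 3. Nid2 (ENSMUSG00000021806, chromosome 14, 19751265 to 19811787) stood at 24.6, 25.1 and 25.2 CPM in treated and at 13.5, 13.7 and 13.8 CPM in control libraries. Every treated library was above every control for both genes, and the Nid2 values within a group lay closer together than those of Nid1. Nid1 rose 1.81-fold (log2 fold change 0.86 ± 0.09 SE over 3 libraries a group, adjusted p = 0.00299 by edgeR). Nid2 rose 1.82-fold (0.87 ± 0.09, adjusted p = 0.00249 by edgeR). Both kept their call in all 13 alternative settings (other scalings, tools and filters, a replicate block and each library left out), with an adjusted p of at most 0.0347 for Nid1 and 0.0324 for Nid2. In deposited FPKM, counts of fragments scaled to gene length and library depth, which allow levels of different genes to be set side by side, Nid1 was 1.98 ± 0.05 times as abundant as Nid2 in treated and 1.99 ± 0.25 times in control tumours (SD, n = 3). Nid2 shares 437 bases with Rtraf, a gene on the other strand, and the sources used here do not say whether counting used strand. Rtraf stood at 112.0 to 118.4 CPM in treated and 118.3 to 127.4 CPM in control libraries, and no treated library was above every control. Endothelial markers, described further on, summed to 605.9 to 634.8 CPM in treated and 440.6 to 457.9 CPM in control libraries, and their part in the nidogen values was not tested. In bulk tissue a change in the number of cells that make a transcript and a change in its amount per cell cannot be told apart.

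**Figure D2:**
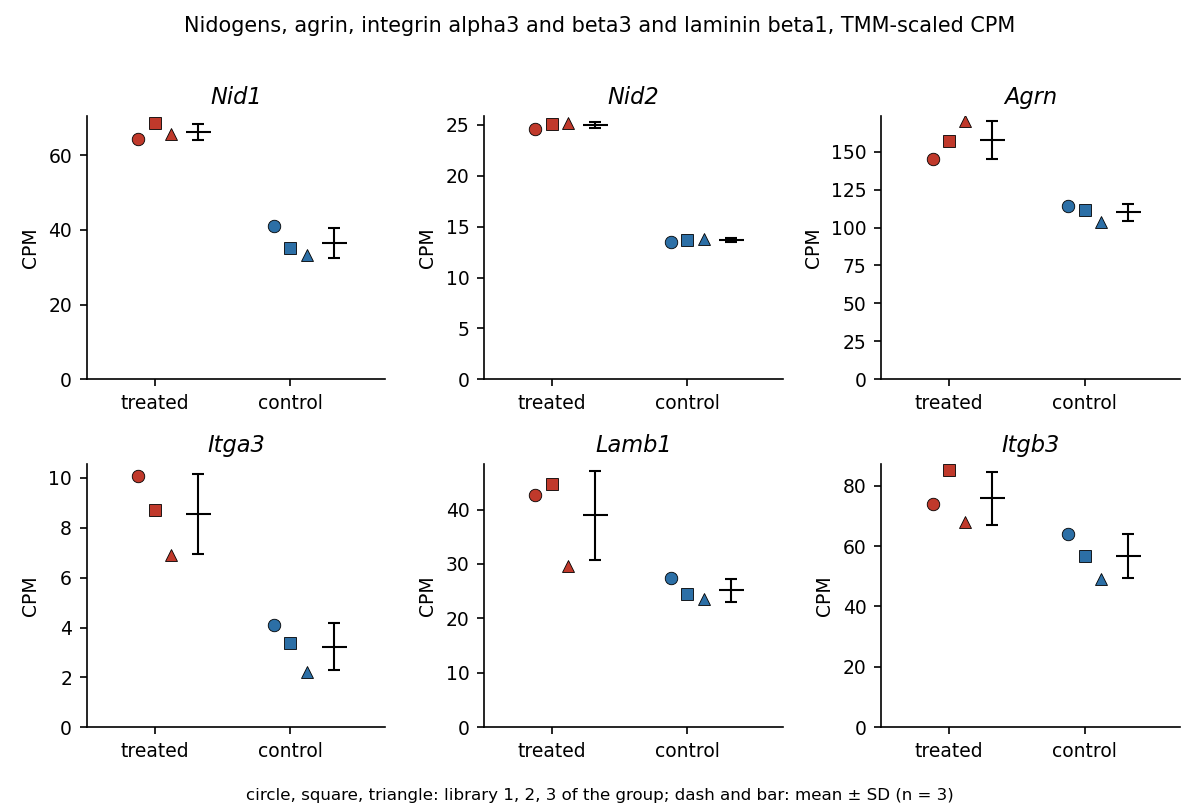
TMM-scaled CPM (y axis) of Nid1, Nid2, Agrn, Itga3, Lamb1 and Itgb3 in each treated and control library, with the mean and SD of 3 libraries beside the points. Treated and control points do not overlap in any of the 6 panels, and Lamb1 of treated library 3 (29.6 CPM) lies just above the highest control (27.5 CPM).

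Agrin, the proteoglycan that gathers acetylcholine receptors at the nerve-muscle synapse and also lies in basement membranes of vessels, rose 1.43-fold. Agrn (ENSMUSG00000041936, chromosome 4, 156165290 to 156197488) stood at 145.0, 157.3 and 169.9 CPM in treated libraries 1, 2 and 3 and at 114.4, 111.6 and 103.8 CPM in controls. All 3 treated libraries were higher than all 3 controls (log2 fold change 0.52 ± 0.08 SE over 3 libraries a group, adjusted p = 0.0188 by edgeR). The call was lost without treated library 2 or without any 1 of the controls (adjusted p by edgeR up to 0.128) and with a replicate block (0.0966), while the log2 fold change ran from 0.46 to 0.57 over all 13 alternatives. The next gene on the same strand, Isg15, a ubiquitin-like protein induced by interferon, ends 1966 bases before Agrn starts. Isg15 rose 10.3-fold, with 230.7, 211.8 and 146.2 CPM in treated and 16.0, 18.2 and 22.8 CPM in control libraries. Isg15 was highest in treated library 1 and lowest of the treated in library 3, and Agrn had the opposite order. Whether reads running on past Isg15 were counted for Agrn was not tested. Perlecan, which binds growth factors through its sugar chains, did not pass the threshold. Hspg2 stood at 104.6, 124.5 and 121.1 CPM in treated and at 106.6, 103.5 and 96.2 CPM in control libraries, and treated library 1 lay inside the control range (0.19 ± 0.08, adjusted p = 0.309 by edgeR). Agrn was 2.14 ± 0.12 times as abundant per length as Hspg2 in treated and 1.71 ± 0.00581 times in control tumours (SD, n = 3).

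Itga3 encodes the alpha chain of a laminin receptor known from kidney, lung and skin. It stood at 10.1, 8.70 and 6.90 CPM in treated libraries 1, 2 and 3 and at 4.09, 3.37 and 2.23 CPM in control libraries (ENSMUSG00000001507, chromosome 11, 95044474 to 95076797). The lowest of the treated, library 3, was above the highest control. Epithelial markers summed to 96.7, 1.88 and 1.85 CPM in treated libraries 1, 2 and 3 and to 3.31, 0.932 and 2.70 CPM in controls. Their part in the Itga3 values was not tested. Itga3 rose 2.65-fold (log2 fold change 1.40 ± 0.26 SE over 3 libraries a group, adjusted p = 0.0434 by edgeR). The call is close to the threshold and held in 7 of 13 alternatives, with an adjusted p between 9.62e-06 and 0.202 and a log2 fold change between 1.20 and 1.62. It was lost without treated library 1 (adjusted p = 0.0936 by edgeR), without treated library 2 (0.156), without control library 1 (0.0724), 2 (0.202) or 3 (0.121), and with no further filter on low counts (0.0557). Per length Itga3 was 0.49 ± 0.14 times as abundant as Itga6, the other laminin receptor chain with a broad distribution, in treated tumours and 0.20 ± 0.05 times in controls (SD, n = 3).

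RefSeq promoter windows, from 250 bases before to 50 bases after a gene's start, were at hand for 26 of the 39 members. Those of the called members Nid1, Agrn and Itga3 at the start nearest to the file's are shown because these genes rose together. Nid2, which was also called, had no window at hand. They lie at chr13:13437352-13437651 on the plus strand, chr4:156197439-156197738 on the minus strand and chr11:95076665-95076964 on the minus strand of GRCm38.p6. Capitals mark GGGCGG, the GC box bound by factors of the Sp family, and the core of the interferon-stimulated response element, written GAAA, any 2 bases, GAAA, each searched on both strands.
Nid1: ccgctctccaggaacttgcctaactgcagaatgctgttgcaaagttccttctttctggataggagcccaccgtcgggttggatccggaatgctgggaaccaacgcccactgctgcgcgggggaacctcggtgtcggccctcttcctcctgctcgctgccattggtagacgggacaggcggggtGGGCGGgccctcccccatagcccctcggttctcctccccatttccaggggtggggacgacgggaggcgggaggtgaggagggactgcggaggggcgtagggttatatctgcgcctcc
Agrn: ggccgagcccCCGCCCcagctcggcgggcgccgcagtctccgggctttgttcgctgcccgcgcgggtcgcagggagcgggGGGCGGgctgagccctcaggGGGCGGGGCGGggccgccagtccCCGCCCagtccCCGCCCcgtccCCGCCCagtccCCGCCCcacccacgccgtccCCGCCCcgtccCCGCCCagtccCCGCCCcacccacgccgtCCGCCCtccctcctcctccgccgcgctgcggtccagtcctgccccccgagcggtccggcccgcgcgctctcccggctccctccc
Itga3: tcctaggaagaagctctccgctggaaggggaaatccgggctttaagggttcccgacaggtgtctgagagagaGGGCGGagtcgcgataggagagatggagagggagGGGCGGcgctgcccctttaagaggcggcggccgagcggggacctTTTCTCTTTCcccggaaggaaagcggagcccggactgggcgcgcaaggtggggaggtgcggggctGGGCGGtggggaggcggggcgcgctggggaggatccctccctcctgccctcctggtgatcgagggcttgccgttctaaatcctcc
GGGCGG occurred 1 time in the Nid1 window, 12 times in that of Agrn, 1 pair of which overlaps, and 3 times in that of Itga3. It is held by 35.7% of all 32851 windows, and by 16 of the 30 windows of the members. The interferon element core occurred 1 time in the Itga3 window, where it reads TTTCTCTTTC on the strand shown, and not in those of Nid1 and Agrn. It is held by 3.44% of all windows and by 2 of the 30 windows of the members, those of Itga3 and Itga2b, of which Itga2b did not pass the test. These matches describe the letters of the windows and are no measure of binding.

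No laminin chain passed the threshold, and 8 of the 10 had a positive log2 fold change. Lamb1, the beta chain of the laminins of embryonic and vascular basement membranes, stood at 42.6, 44.6 and 29.6 CPM in treated libraries 1, 2 and 3 and at 27.5, 24.5 and 23.5 CPM in controls. Treated libraries 1 and 2 were well above the controls and library 3 was close to them (log2 fold change 0.63 ± 0.15 SE, adjusted p = 0.106 by edgeR). Without treated library 3 Lamb1 passed (0.80, adjusted p = 0.00966 by edgeR), and it passed by DESeq2 (adjusted p = 0.00273) and by limma-voom with sample quality weights (0.0431). Lamb2, the beta chain that takes its place at mature synapses and in kidney filters, stood at 55.4, 64.3 and 58.4 CPM in treated and 64.0, 55.9 and 50.3 CPM in control libraries, which overlap (0.066 ± 0.10, adjusted p = 0.815 by edgeR). Per length Lamb2 was 2.12, 2.35 and 3.22 times as abundant as Lamb1 in treated libraries 1, 2 and 3 and 3.81, 3.73 and 3.50 times in controls. The ratio was lower in every treated library than in every control.

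Lama3, Lamb3 and Itgb4, chains of the laminin adhesion of epithelial cells, were highest in treated library 1. Lamb3 had 45, 5 and 8 counts in treated libraries 1, 2 and 3 and 15, 10 and 8 in controls, so that only treated library 1 was high. Lama3, a laminin alpha chain of skin, stood at 2.68, 1.57 and 1.76 CPM in treated and 1.36, 1.52 and 1.49 CPM in control libraries, with a narrow gap between the groups (log2 fold change 0.46 ± 0.28 SE, adjusted p = 0.479 by edgeR). Itgb4, the beta chain of the hemidesmosome receptor, stood at 5.45, 2.98 and 4.59 CPM in treated and 2.66, 3.91 and 3.67 CPM in control libraries, which overlap. Treated library 1 is the library with keratinocyte transcripts, and without it the log2 fold change was negative for Lamb3 (-0.81), 0.19 for Lama3 and 0.15 for Itgb4, against 0.35 for Itgb4 with all libraries. That library also had the highest sums of skeletal muscle and neutrophil markers. The part of keratinocytes in the values of Lama3, Lamb3 and Itgb4 was not tested.

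**Figure D3:**
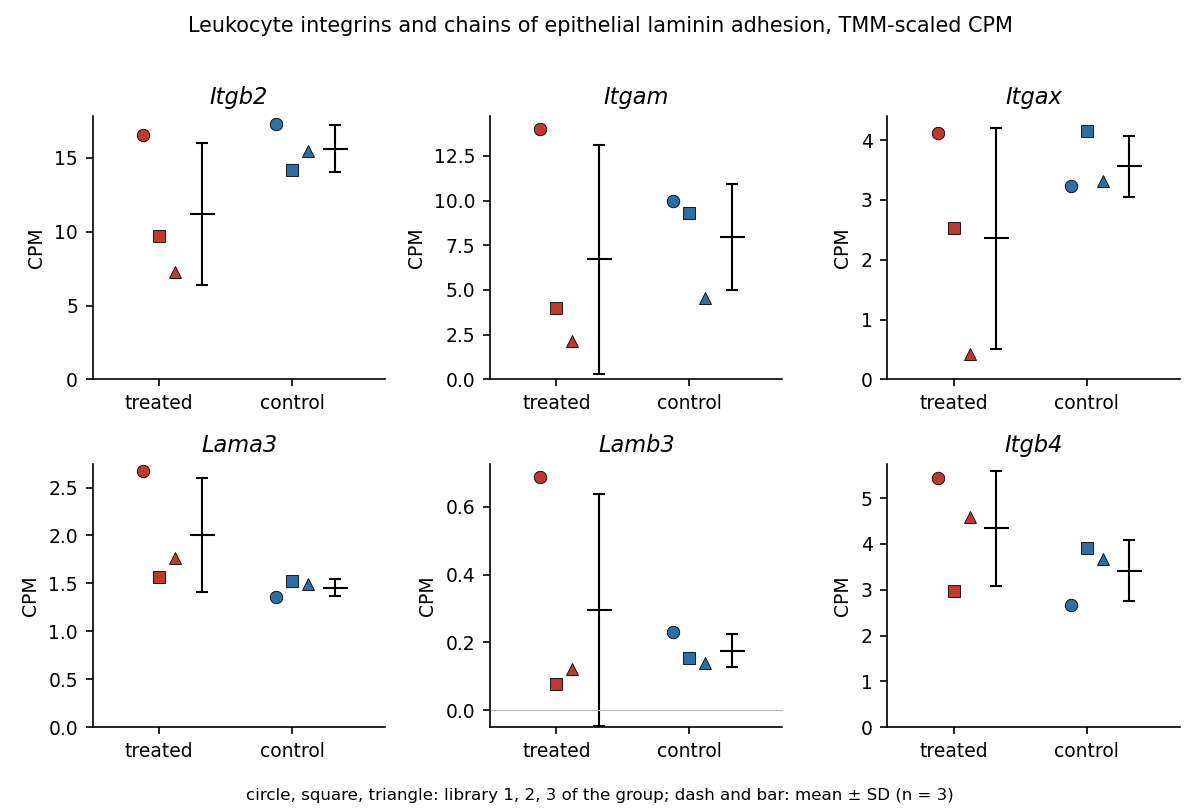
TMM-scaled CPM (y axis) of the leukocyte integrin chains Itgb2, Itgam and Itgax (top) and of Lama3, Lamb3 and Itgb4 (bottom) in each treated and control library, with the mean and SD of 3 libraries. Treated library 1 (circle) is the highest treated library in all 6 panels, and the groups overlap in all but that of Lama3.

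The other laminin chains differed less between the groups. Lamc1, the gamma chain of most laminins, stood at 197.2, 227.6 and 205.6 CPM in treated and 194.5, 189.5 and 180.5 CPM in control libraries. All treated libraries were above all controls, by a small margin (log2 fold change 0.16 ± 0.07 SE, adjusted p = 0.326 by edgeR). Lama4, the alpha chain of laminins of small vessels, muscle and fat, stood at 87.5, 99.4 and 109.1 CPM in treated and 87.2, 91.6 and 92.7 CPM in control libraries, which overlap (0.12 ± 0.09, adjusted p = 0.545 by edgeR). Lama5, found in mature epithelial and vascular basement membranes, was at 42.1, 46.0 and 42.4 CPM in treated and 50.1, 46.4 and 48.7 CPM in control libraries (-0.15 ± 0.07, adjusted p = 0.336 by edgeR). Lama5 had every treated library below every control, with treated library 2 and control library 2 nearly level. Lama2, the alpha chain of muscle and nerve whose loss causes muscular dystrophy, was at 3.69, 3.49 and 4.05 CPM in treated and 3.43, 2.41 and 3.16 CPM in control libraries (0.32 ± 0.21, adjusted p = 0.512 by edgeR). It was highest in treated library 3, which had the lowest sum of muscle markers and the highest sum of Schwann cell and nerve markers (381.4 CPM). The part of muscle and nerve in the Lama2 values was not tested. Lamc3, a gamma chain of nerve and retina, stood at 2.25, 1.72 and 2.65 CPM in treated and 3.63, 2.24 and 1.77 CPM in control libraries, which overlap.

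The tested integrin chains other than Itga3 did not pass the threshold. Itgb3, the partner of Itgav in the receptor for vitronectin and of Itga2b in the platelet receptor for fibrinogen, stood at 74.0, 85.3 and 68.0 CPM in treated libraries 1, 2 and 3 and at 63.9, 56.8 and 49.2 CPM in controls. All treated libraries were above all controls (log2 fold change 0.42 ± 0.12 SE, adjusted p = 0.142 by edgeR), and among the alternatives DESeq2 alone called it (adjusted p = 0.0156). Itga5, which with Itgb1 forms the main fibronectin receptor, stood at 132.4, 161.7 and 128.2 CPM in treated and 124.3, 112.1 and 99.6 CPM in control libraries. The lowest treated and the highest control library were close (0.33 ± 0.11, adjusted p = 0.217 by edgeR). Itgav, the alpha chain of vitronectin receptors, stood at 222.0, 267.4 and 238.4 CPM in treated and 227.2, 221.9 and 230.7 CPM in control libraries, which overlap (0.10 ± 0.08, adjusted p = 0.593 by edgeR). Itgb1, the beta chain shared by most matrix-binding integrins, had 447.3, 533.5 and 534.8 CPM in treated and 525.2, 513.7 and 528.5 CPM in control libraries. Treated library 1 was low and the other 5 were alike (-0.048 ± 0.08, adjusted p = 0.819 by edgeR).

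Itga9, which binds tenascin and other ligands and is known from lymphatic valves, was lower in each treated library. It stood at 64.8, 60.8 and 74.7 CPM in treated and 83.3, 75.6 and 78.1 CPM in control libraries, with a narrow gap between the groups (log2 fold change -0.24 ± 0.09 SE, adjusted p = 0.238 by edgeR). Itga4, a chain of the receptor for Vcam1 on leukocytes and on cells of the neural crest lineage, ranged from 49.6 to 65.6 CPM in treated and from 61.7 to 71.7 CPM in control libraries (-0.26 ± 0.11, adjusted p = 0.313 by edgeR). Itga6 and Itga1, receptor chains for laminin and for collagen, had log2 fold changes of 0.15 ± 0.11 and 0.15 ± 0.14. Pelo, a gene on the same strand, shares 1832 bases with Itga1. It had 1338, 1512 and 1760 counts in treated and 1584, 1441 and 1248 counts in control libraries. Itga1 had 1424, 1739 and 2076 counts in treated and 1685, 1513 and 1303 counts in control libraries. Whether reads of Pelo were counted for Itga1 was not tested. Itga7, the laminin receptor chain of muscle, was at 0.052 ± 0.22, and Itga2b, the platelet chain, at 0.14 ± 0.24. Itga2, Itga8, Itga10 and Itga11, chains of receptors for collagen or for RGD ligands, and Itgb8 had log2 fold changes from -0.59 to -0.017 and groups that overlapped. Itgb5 overlapped as well (0.10 ± 0.19).

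The 6 chains of leukocyte integrins, Itgal, Itgam, Itgax, Itgae, Itgb2 and Itgb7, all had negative log2 fold changes, from -1.16 to -0.25 with a median of -0.57, and none passed. The median was -1.14 without treated library 1 and -0.31 without treated library 3. Without treated library 1 the log2 fold changes were -0.88 for Itgb2, -1.38 for Itgam, -1.27 for Itgax and -1.01 for Itgal, and without treated library 3 they were -0.25, 0.18, -0.10 and -0.37 for the same genes. Itgae, the chain that binds E-cadherin and marks T cells in epithelia and a subset of dendritic cells, had 35, 23 and 29 counts in treated and 83, 58 and 45 counts in control libraries. All treated libraries were below all controls (log2 fold change -1.16 ± 0.38 SE, adjusted p = 0.194 by edgeR). Haspin, a kinase gene on the other strand that overlaps Itgae, had 888 to 1138 counts in treated and 900 to 1094 counts in control libraries. Itgb2, the beta chain shared by integrins of leukocytes, stood at 16.6, 9.74 and 7.26 CPM in treated libraries 1, 2 and 3 and 17.3, 14.1 and 15.5 CPM in controls. Itgam, the alpha chain of macrophages and neutrophils, stood at 14.03, 3.98 and 2.12 CPM in treated and 9.98, 9.32 and 4.58 CPM in control libraries. Itgax, the chain used to mark dendritic cells, stood at 4.11, 2.53 and 0.422 CPM in treated and 3.23, 4.15 and 3.32 CPM in control libraries. For these 3 genes treated library 1 lay within or above the control range and treated library 3 was the lowest of all. Gm49368, a gene on the same strand, shares 55809 bases with Itgam. It had 8, 175 and 34 counts in treated and 0, 69 and 197 counts in control libraries. Itgam had 917, 256 and 141 counts in treated and 646, 600 and 261 counts in control libraries. Whether reads of Itgam were counted for Gm49368 was not tested. Itgal and Itgb7, chains of lymphocyte integrins, ranged from 2.10 to 4.51 CPM and from 0.693 to 1.53 CPM in treated libraries, against 3.354 to 5.84 CPM and 1.44 to 2.50 CPM in controls, which overlap. The macrophage marker sums had the same order among treated libraries, at 264.1, 158.1 and 80.1 CPM, against 222.0, 213.1 and 162.9 CPM in controls, and their part in these values was not tested. Of 10 markers of all leukocytes 1 fell (10%, against 0.249% of all genes tested). It was Lcp1, an actin-bundling protein (log2 fold change -0.51 ± 0.08 SE, adjusted p = 0.02 by edgeR, lost without treated library 2 or any 1 of the controls). The list's median was -0.30, with -0.89 without treated library 1 and 0.0032 without treated library 3.

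Levels per length differed far more between members than between groups. Among the beta chains Itgb1 took 85.6 ± 2.43% of all integrin beta FPKM in treated and 87.2 ± 1.30% in control tumours (SD, n = 3). It stood at 109.2 ± 10.2 FPKM in treated and 113.6 ± 1.80 FPKM in control tumours, while Itgb3 stood at 11.3 ± 1.14 FPKM in treated and 8.51 ± 1.104 FPKM in control tumours. Itgb2 and Itgb5 came next, with Itgb2 above in 5 of 6 libraries. Among the alpha chains Itga5 (25.2 ± 2.86 FPKM in treated and 20.1 ± 2.22 FPKM in control tumours) and Itgav (19.9 ± 1.60 FPKM in treated and 18.7 ± 0.383 FPKM in control tumours) led, and their ranges overlapped, with Itga5 above in 5 of 6 libraries. Itga9 and Itga4 followed in that order in all 6 libraries, and then Itga6, which was above Itgam in 5 of 6. Itga3, with 1.32 ± 0.249 FPKM in treated and 0.499 ± 0.147 FPKM in control tumours, took 2.04 ± 0.404% of alpha chain FPKM in treated and 0.817 ± 0.201% in control tumours.

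Laminin levels were led by Lama4, Lamb2 and Lamc1 within their chain types. Lamc1 held 97.9 ± 0.433% of gamma chain FPKM in treated and 98.1 ± 0.691% in control tumours (SD, n = 3). Lama4 held 65.8 ± 2.62% of alpha chain FPKM in treated and 62.2 ± 1.58% in controls, and Lama5 held 30.9 ± 2.27% in treated and 35.2 ± 1.41% in controls. The nidogens together came to 0.587, 0.535 and 0.576 times the FPKM of Lamc1 in treated libraries 1, 2 and 3 and to 0.362, 0.337 and 0.342 times in controls. The ratio was higher in every treated library than in every control.

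**Figure D4:**
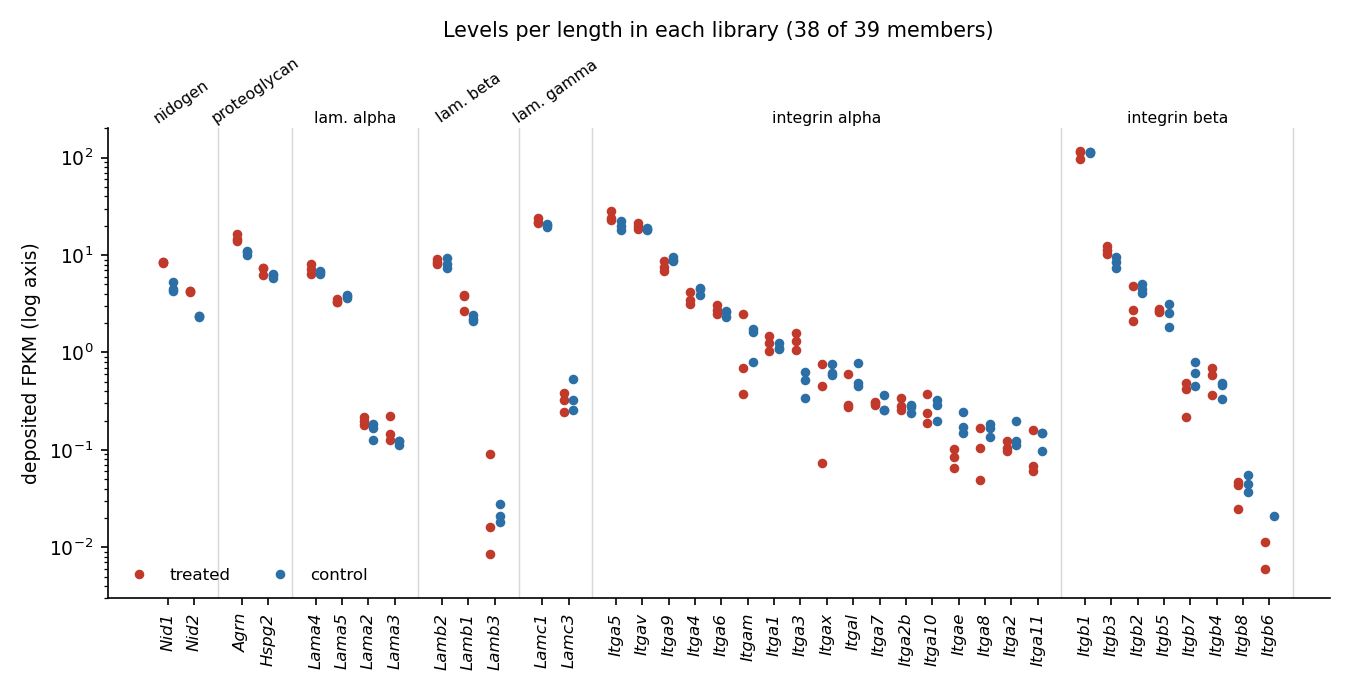
Deposited FPKM of 38 of the 39 members in each library (y axis, log scale), by role and in falling order of level, with treated libraries to the left of control libraries for each gene. Itgb1 lies between 97.6 and 116.7 FPKM, Itga5, Itgav, Lamc1 and Agrn lie between 9.92 and 28.4 FPKM, and values of 0 (Itgb6 in 3 libraries) are not drawn.

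Other basement membrane proteins were counted from a list of 27 genes, of which 25 were tested. In this list 3 rose and none fell, a share of 12.0% against 1.61% of all genes tested, with a median log2 fold change of 0.33 against -0.0032. The risers were both chains of the common type IV collagen and the type XVIII collagen that gives rise to endostatin. Col4a1 stood at 306.6, 341.0 and 354.3 CPM in treated and 172.5, 172.5 and 159.2 CPM in control libraries (1.99-fold, adjusted p = 0.000559 by edgeR). Col4a2 rose 2.02-fold (adjusted p = 0.000692 by edgeR) and Col18a1 1.79-fold (0.0101). Per length Col4a1 was 1.76 ± 0.13 times as abundant as Lamc1 in treated and 0.99 ± 0.02 times in control tumours (SD, n = 3). Fbln5, an elastic fibre protein and the most abundant of the list, had a log2 fold change of 0.18 ± 0.08 (adjusted p = 0.315 by edgeR). The call of Col18a1 was lost without treated library 2 or control library 2 or 3 (adjusted p by edgeR up to 0.0877), and those of Col4a1 and Col4a2 held in all 13 alternatives.

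Integrin ligands other than laminins had 2 of 32 tested genes that rose and none that fell (6.25%, median 0.20). Over all genes tested 1.36% rose, and the median was -0.0032. Thbs1, thrombospondin, which binds integrins and restrains vessel growth, stood at 116.1, 159.1 and 134.3 CPM in treated and 42.1, 41.2 and 36.5 CPM in control libraries (3.42-fold, adjusted p = 0.00036 by edgeR). F11r, a tight junction protein that binds the leukocyte integrin of Itgal, rose 1.64-fold (adjusted p = 0.049 by edgeR), a call kept only without treated library 3 among the leave-outs. Fn1, fibronectin, had a log2 fold change of -0.12 ± 0.13 (adjusted p = 0.721 by edgeR). Integrin adaptors and activators had 2 of 34 that rose and none that fell (5.88%, against 1.36% of all genes tested, median 0.04). Tns2, a tensin that links integrin tails to actin, rose 1.54-fold (adjusted p = 0.00245 by edgeR), and Ddr1, a collagen receptor kinase, rose 1.34-fold (0.0426), a call kept only without treated library 1 among the leave-outs. Flna, the actin cross-linker that binds beta chain tails, had -0.34 ± 0.17 (0.389). Laminin, agrin and perlecan receptors other than integrins had 0 of 21 called by edgeR, against 1.61% of all genes tested, and a median of 0.03. At an unadjusted p under 0.05 by edgeR they had 0, against 16.0% of all genes tested. Dag1, dystroglycan, which binds laminin, agrin and perlecan through its sugar chains, had 0.09 ± 0.13 (adjusted p = 0.815 by edgeR). Rpsa, the most abundant of them, had 0.08 ± 0.04 (0.394).

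**Figure D5:**
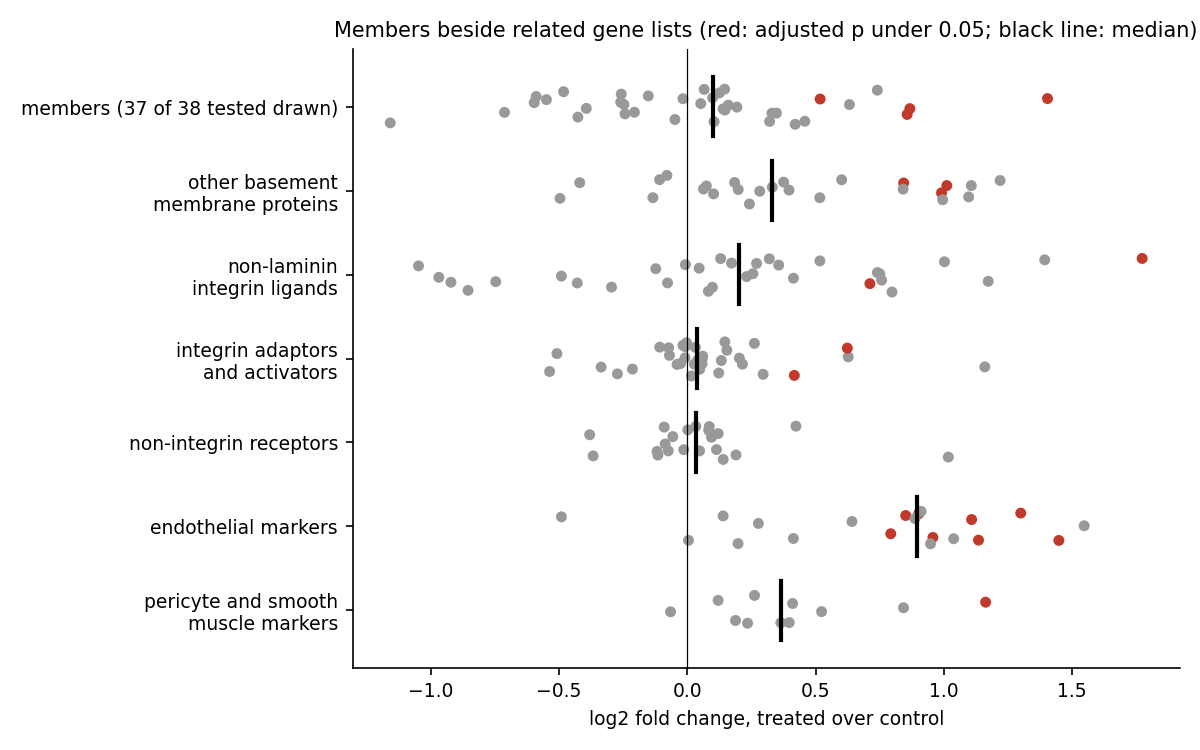
Log2 fold change, treated over control (x axis), of 37 of the 38 tested members and of each related gene list down the page, each point a gene, with called genes in red and the median as a black line, taken for the members over all 38. The medians run from 0.03 for non-integrin receptors to 0.89 for endothelial markers, with the members at 0.10.

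Markers of endothelial cells, which line vessels, had a higher sum in treated than in control libraries. Of 20 markers 8 rose (40%, against 1.36% of all genes tested) and none fell, with a median log2 fold change of 0.89. Log2 fold changes were positive for 19 markers and negative for 1 (-0.49, unadjusted p under 0.05 by edgeR). The sum of the 20 markers was 634.8, 626.8 and 605.9 CPM in treated libraries 1, 2 and 3. It was 457.7, 457.9 and 440.6 CPM in control libraries 1, 2 and 3. Among the treated libraries the sum was highest in library 1 and lowest in library 3, and Agrn had the opposite order. The risers with the smallest p were Pecam1, an adhesion molecule of endothelial junctions (2.46-fold, adjusted p = 0.000348 by edgeR), Robo4, Cdh5, Esam, Flt1 and Plvap, with folds from 1.73 to 2.73. With 1 library left out 3 to 8 markers were called, and Pecam1, Robo4 and Cdh5 were the 3 left without treated library 2, without control library 2 and with a replicate block. The count was 4 without control library 1 and 5 without control library 3. Eng, an endothelial co-receptor for the TGF-beta family and the most abundant of them, had a log2 fold change of 0.20 ± 0.05 (adjusted p = 0.131 by edgeR). Of 11 tested markers of pericytes and smooth muscle 1 rose (9.09%, against 1.36% of all genes tested). It was the potassium channel gene Kcnj8 (2.24-fold, adjusted p = 0.0355 by edgeR, kept only without treated library 1 among the leave-outs). The list median was 0.36, with sums of 210.3 to 225.2 CPM in treated and 176.9 to 193.6 CPM in control libraries. Fibroblast markers had 0 of 10 called and sums that overlapped, at 495.6 to 572.4 CPM in treated and 312.9 to 592.5 CPM in control libraries. Of 10 tested neutrophil markers 1 rose (10%, against 1.36% of all genes tested). It was Hdc, the histamine-forming enzyme (7.52-fold, adjusted p = 0.0497 by edgeR, kept in 4 of 13 alternatives and only without treated library 3 among the leave-outs). All 10 had a positive log2 fold change, with a median of 2.22. At an unadjusted p under 0.05 by edgeR 6 of the 10 were higher, against 9.12% of all genes tested. DESeq2 called 4 of them higher. Neutrophil sums were 10.3 to 78.7 CPM in treated and 7.07 to 10.2 CPM in control libraries. No marker of macrophages, T and NK cells, dendritic cells, platelets, pigment cells, epithelium, skeletal muscle, Schwann cells or adipocytes passed the main edgeR fit. Among the alternatives, Fcgr1 of the macrophage list was called higher without treated library 3, and Col17a1 of the epithelial list with a replicate block. Fabp4 of the adipocyte list was called higher by DESeq2, with sample quality weights, and without treated library 1 or 3. Sums were 12.3 to 23.7 CPM in treated and 18.4 to 22.5 CPM in control libraries for T and NK cells, and 37.5 to 82.9 CPM in treated and 26.4 to 28.2 CPM in control libraries for adipocytes. No endothelial, pericyte or fibroblast marker was at 0 in every library. The part of vessel cells in the changes of Nid1, Nid2 and Agrn was not tested.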

How the data were processed

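Polyadenylated RNA of mouse tumours, in 3 treated and 3 control libraries, was sequenced as paired reads of 150 bases with a protocol that marks strand, per the labels' protocols. Tools listed without a role, per the submitters' processing notes, were edgeR, fastp and StringTie. Aligner, build, annotation and the strand setting of counting: not given in the sources used here. The authors deposited 1 table with raw counts and FPKM per gene and library, per the file headers. The count columns hold whole numbers. The deposited FPKM were used to set levels of different genes side by side and not for tests. Over 13090 genes with at least 50 counts in every library, FPKM was proportional to the count within 1% for 98.8 to 99.8% of genes. The header of 1 FPKM column carries an extra suffix and was matched by the sample title it holds. Of the gene identifiers 99.7% are in GENCODE M21 (GRCm38), and 37 of 39 members have the same span there.

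Tests on the counts used edgeR 4.0.16 under R 4.3.3 (filterByExpr, minimum count 10 and total 15, leaving 18049 genes; TMM factors 0.974 to 1.01; glmQLFit and glmQLFTest on the group, two-sided). P-values were adjusted over all genes tested, with a threshold of 0.05. The SE is the log2 fold change divided by the square root of F. CPM are TMM-scaled. Alternatives used RLE factors, DESeq2 1.42.0, limma-voom 3.58.1 with and without sample weights, other filters, a replicate block and each library left out. The fit was tested on data simulated with the means, dispersions and depths of these libraries. It recovered 13 of 50 genes changed 1.5-fold, 27 of 50 changed 2-fold, 34 of 50 changed 4-fold and 42 of 50 changed 8-fold. Of 128 calls 12 were false, a larger share than the threshold of 0.05. Calls with an adjusted p close to 0.05 are therefore less certain than that value. A member that did not pass may still have changed, since genes changed by each of these folds were missed. For Lamb3, Itgae and other genes with few counts, the number of counts also limits precision.

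The members and gene lists were chosen with earlier results of these data known. All members but 1, which is not reported here, are named, with values in every library for those past an unadjusted p of 0.05, those whose groups did not overlap and the 2 most abundant of each role. From each list the called genes (at most 6) and the most abundant one are named, and others named beside them were chosen after their values were seen.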

Additional observations from a re-analysis of the deposited data

How the results depend on the processing

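Over 13 alternatives, 30 of the 38 tested members kept the sign of their log2 fold change. Nid1 and Nid2 passed the threshold in each of them. The number of members that rose was 4, with 7 by DESeq2 (Lamb1 and Itgb3 among those added), 6 by limma-voom with sample quality weights and between 2 and 5 with each library left out (2, Nid1 and Nid2, without treated library 2 or any 1 of the controls), and 0 fell in each setting. With the replicate number as a block it was 3, Agrn not passing (adjusted p = 0.0966). Deviations of same-numbered libraries from their group means correlated at 0.0855, -0.164 and -0.107, and not every library correlated best with its own number. Deviations from a mean of 3 libraries are tied to each other, so these values cannot tell whether the numbers stand for a pairing. Over all genes, 246 rose and 45 fell, against 754 and 367 by DESeq2, 601 and 191 with sample quality weights, 123 and 14 with the block, and 94 to 308 and 3 to 39 with a library left out.

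The sign turned for members that were not called. With 1 library left out, log2 fold changes ran from -0.075 (without control 3) to 0.30 for Itgb5, from -0.034 (control 2) to 0.25 for Itga7, from -0.091 to 0.033 (treated 1) for Itgb1 and from -0.81 (treated 1) to 1.20 for Lamb3. They ran from -0.40 to 0.15 (control 1) for Lamc3, from -1.38 to 0.18 (treated 3) for Itgam, from -0.0083 (control 3) to 0.17 for Lamb2 and from -0.33 to 0.18 (treated 3) for Itga10. Further turns were -0.026 for Itga7 (control 1), 0.025 for Itgam (treated 2) and 0.056, 0.14 and 0.032 for Itga10 (treated 2, control 1 and control 2). Lamb3 was at -0.24 with sample quality weights. The cause was not tested. With at least 1 CPM in 3 libraries, 33 members were left to test.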

Other observations

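Members below the filter of the test, and rows matching by name with fewer than 15 counts, gave values only. Itgb6, an integrin chain of epithelia, had 6, 0 and 4 counts in treated libraries 1, 2 and 3 and 12, 0 and 0 counts in control libraries 1, 2 and 3. Lama1, the alpha chain of early embryonic basement membranes, had 8, 0 and 0 counts in treated and 4, 0 and 0 counts in control libraries. Itgad, a leukocyte integrin chain, had 0 counts in each treated library and 7, 0 and 0 counts in control libraries. For all 3 genes the counts of the controls were in control library 1.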
